A study of Mus musculus with 6 samples.

Results

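Cultured mouse cortical neurons held in 55 mM KCl for 2 h were compared with neurons of the same kind at rest (0 h), by the depth and the methylation of cytosines in RNA bisulfite sequencing (RNA BS-seq). The comparison used 4 of the 6 libraries of the series, 2 biological replicates at each time. Its cytosines were those listed in all 4 libraries with a coverage of at least 20 reads, 289029 of the 5240657 cytosines listed in any library of the series. Transcript abundance was read from 3653 genes with at least 5 such cytosines, of 15994 genes with a listed cytosine. Methylation was read from 2248 cytosines that had at least 6 unconverted reads and a level of at least 10% in both replicates of either time. None of these choices used the direction of a change, but the level minimum was applied at both times, so a cytosine could enter through the time at which it was higher.

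The neurons were dissociated from the cortex of wild-type C57BL/6 embryos at E16.5 and grown for 7 days. Both groups were silenced overnight with 1 µM tetrodotoxin (TTX), which blocks voltage-gated sodium channels, and 100 µM DL-AP5, which blocks NMDA receptors. The 0 h group was therefore a silenced culture and not a spontaneously active one. KCl depolarizes every cell in the dish, glia included, without synaptic input. The RNA was enriched for poly(A) and converted with bisulfite.

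5-methylcytosine (m5C) is a base modification that enzymes of the NSUN family and TRDMT1 write into tRNA, rRNA and some mRNA sites. Bisulfite turns an unmethylated cytosine into uracil, which is read as T, and leaves m5C as C, so the share of C among the reads at a position is its methylation level. Depolarization opens voltage-gated calcium channels, and calcium signaling to CREB, SRF and MEF2 switches on immediate early genes within minutes to hours, first transcription factors such as Fos and then effectors that act at the synapse.

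The libraries listed between 1559828 and 1789348 cytosines each, and the median coverage of the shared cytosines was between 2060 and 2848 reads. A cytosine was listed in a library when at least 1 of its reads was unconverted, so the shared cytosines lean to deeply covered transcripts. Background non-conversion, taken as the unconverted share at cytosines covered 5000 times or more whose level was 1% or lower, came to 0.0852% and 0.0838% in the resting libraries. After KCl it was 0.0851% and 0.0841%. Of the neuronal markers, 8 of 9 were measured, with a median log2 change of 0.06, and Tubb3 fell. No microglial or vascular marker had enough shared cytosines to be tested. Of the astrocyte markers, 4 of 7 were tested and Aldh1l1 fell, and of the oligodendrocyte lineage markers, 3 of 6 were tested and Olig1 and Pdgfra fell, by 0.70 and 0.57 on the log2 scale. That was 25% and 66.7% of the tested markers, against 14.5% of all genes tested, and none of these falls was called without either 0 h library. Glial RNA was thus present in the cultures, and in bulk RNA fewer cells of a type and less RNA per cell cannot be told apart.

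The cytosines with the largest methylation changes are shown first, as 21-base contexts in the RNA sense (with T for U) with the measured cytosine in capitals. Positions are on GRCm38. The first 4 carried the largest rises of all isolated positions (those with no other such cytosine nearby, defined with the levels), Homer1 carried a rise in a transcript that rose, Jund is an immediate early gene whose abundance was not called, and Cers4 carried the largest fall.

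Arid3a, chr10:79952826, plus strand, 3′ UTR: attgcttaccCaggacacaga
Gprin2, chr14:34188431, minus strand, 3′ UTR: gcctatcttaCggaagaaagt
Trim2, chr3:84190999, minus strand, coding: tatccacaacCtggggaccat
Zbed3, chr13:95336484, plus strand, coding: ccagcgggagCtggagctgga
Homer1, chr13:93303935, plus strand, 5′ UTR: tcatcccctcCggtgttgttc
Jund, chr8:70699629, plus strand, coding: agcagtttcgCgggtggcgcc
Cers4, chr8:4493486, plus strand, 5′ UTR: ggctctgtagCgaggagtttc

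To ask which transcripts changed in abundance, each gene's coverage was taken as the median over its shared cytosines after scaling every library to the same summed nuclear coverage. Between 0 h and 2 h, 274 of 3653 genes rose, 7.50% of those tested, and 528 fell, 14.5% (limma, Benjamini-Hochberg adjusted p of at most 0.05). More than 2-fold changes were the reverse, with 49 genes up (1.34%) and 25 genes down (0.684%). The median log2 change over all genes was -0.08, and scaling by the median of ratios, which moved that median by 0.08, gave 386 rises and 352 falls, so the excess of small falls depended on the scaling. TMM gave 371 rises and 355 falls. Both 2 h libraries lay above both 0 h libraries in 860 genes (23.5%) and below them in 1532 (41.9%). Without a 0 h library, 21 to 24 genes rose and 5 to 9 fell, and without a 2 h library, 419 to 489 rose and 808 to 922 fell. Of 124 tested genes on the gene lists described below (cell type markers, ribosomal and Zfp genes apart), 22 rose and 16 fell, and without either 0 h library 10 rose and none fell. Fos, Nr4a1, Nr4a2, Nr4a3, Nfil3, Fosl2, Homer1, Scg2, Rgs2 and Atf4 were those 10, and the other listed genes were called only with both 0 h libraries present. The 0 h replicates differed by a median of 0.0876 log2 units over all genes and the 2 h replicates by 0.111, against 0.188 between times.

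The immediate early transcription factors held the largest rises. Fos, a partner in the AP-1 dimer, had a scaled coverage of 50.8 and 71.3 reads in the resting libraries and 9062 and 7972 after KCl, a log2 change of 7.14 ± 0.18 (SE, limma adjusted p = 4.1e-05). Nr4a1, an orphan nuclear receptor, went from 43.0 and 43.6 reads to 2899 and 2944, a log2 change of 6.08 ± 0.11. Its relatives followed in order of size. Nr4a2 went from 84.0 and 81.4 reads to 2368 and 2337 (4.83 ± 0.10), and Nr4a3 from 310.1 and 296.0 to 3611 and 3216 (3.49 ± 0.09). In all 4 genes the replicates lay close together and far from the other time.

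Nfil3, a basic leucine zipper repressor, rose from 531.3 and 580.2 reads to 4742 and 4380 (log2 change 3.04 ± 0.09). Fosl2, another AP-1 partner, rose from 671.6 and 645.9 reads to 3023 and 3105 (2.22 ± 0.08). These 6 genes were the ones that rose among 9 tested members of the 29-gene list of immediate early factors, 66.7% against 7.50% of all genes, and the median log2 change of the 9 was 3.04. The 3 others were not called. Jun had 1818 and 2091 reads at rest and 1565 and 1595 after KCl, a log2 change of -0.30 ± 0.09 that missed the threshold (limma adjusted p = 0.068), and it passed without either 2 h library. Jund had 4513 and 5062 reads against 4181 and 4636, and its libraries overlapped. Klf6 overlapped as well, with a log2 change of 0.10 ± 0.09.

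**Figure D1:**
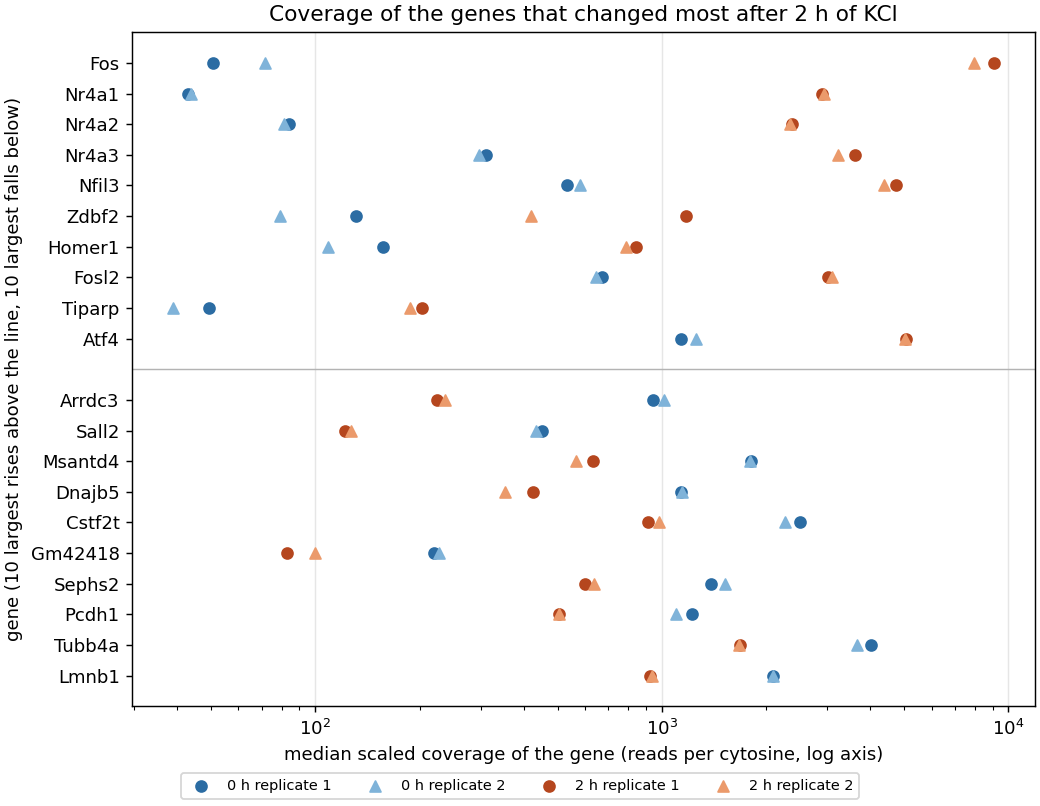
Median scaled coverage of a gene's shared cytosines in each of the 4 libraries, on a log axis, for the 10 largest rises and the 10 largest falls past the adjusted p. Points are single libraries. In all 20 genes both 2 h libraries lie on the same side of both 0 h libraries, and Zdbf2 has the widest spread between replicates.

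The remaining 20 immediate early factors could not be tested, many of them because no or few of their cytosines were listed at rest. Npas4, a neuron-specific factor induced by calcium, had no listed cytosine with 20 reads in either resting library, and 210 and 365 such cytosines after KCl with a median coverage of 1310 and 540 reads. Fosb had none at rest and 220 and 274 after KCl, with a median coverage of 822 and 725 reads. Junb, a Jun family member, had 46 and 6 at rest with a median of 32 and 144.5 reads, and 229 and 236 after KCl with a median of 1759 and 1889. Egr4 and Klf4 were likewise unlisted at rest and listed in both 2 h libraries, with 44 and 51 cytosines for Egr4 and 46 and 49 for Klf4. Ier2 went from 9 and 16 cytosines to 112 and 111. Egr1 had 8 and 8 cytosines at rest and 26 and 41 after KCl, with a median coverage of 74 and 54.5 reads against 121.5 and 124.

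In this list, 13 of the 19 untested genes with any listed cytosine had more listed cytosines in both 2 h libraries than in both 0 h libraries, 2 had fewer in both, and 7 were listed after KCl alone. Those with fewer were Bhlhe40, with 123 and 98 at rest and 13 and 65 after KCl, and Klf10, with 61 and 18 at rest and 14 and 6 after KCl. Of all 10586 untested genes, 1420 (13.4%) had more and 2486 (23.5%) fewer, and 173 were listed after KCl alone. No fold change was computed for these genes. A cytosine is listed through an unconverted read, so the number listed rises with depth and is a coarser measure than coverage.

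Effectors of activity, proteins that act at the synapse or in signaling, were read next. Homer1, whose short induced form uncouples metabotropic glutamate receptors from the postsynaptic scaffold, went from 157.2 and 108.5 reads to 842.0 and 789.9 (log2 change 2.64 ± 0.20, limma adjusted p = 0.0018). With the mean in place of the median over its cytosines the log2 change of Homer1 was 1.54, and with cytosines listed in at least 1 library of each time it was 1.59 and not called (limma adjusted p = 0.16). Scg2, a granin precursor of secreted neuropeptides, went from 563.5 and 647.5 reads to 2571 and 2331 (2.02 ± 0.10). Rgs2, which speeds the shut-off of G protein signals, went from 506.8 and 547.2 reads to 1796 and 1922 (1.82 ± 0.09). The relative Rgs4 rose by 0.74 ± 0.09, and Plk2, a kinase that acts in homeostatic weakening of synapses, rose by 0.89 ± 0.11. Rheb was higher in both 2 h libraries, by 0.32 ± 0.11, and was not called (limma adjusted p = 0.086).

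Thus 5 of the 6 tested members of the 28-gene effector list rose, 83.3% against 7.50% of all genes, with a median log2 change of 1.35. Bdnf, the neurotrophin, was outside the test, with 8 and 4 listed cytosines at rest and 90 and 134 after KCl, and a median coverage of 73.5 and 37 reads against 995.5 and 590.5. Vgf, a neuropeptide precursor, had 49 and 27 cytosines at rest and 260 and 280 after KCl. Arc was unlisted at rest and had 19 and 14 cytosines after KCl, with a median coverage of 56 and 49.5 reads. Nptx1, a neuronal pentraxin, had 90 and 83 at rest and 26 and 30 after KCl. Of the 21 untested effectors with a listed cytosine, 11 had more in both 2 h libraries and 2 had fewer, against 13.4% and 23.5% of all untested genes. The one tested feedback regulator of the 24 listed, the MAP kinase phosphatase Dusp8, rose from 666.0 and 606.2 reads to 1005.2 and 1029.6 (0.68 ± 0.09). Of the 23 untested, 10 had more listed cytosines in both 2 h libraries and 4 had fewer, again against 13.4% and 23.5% of all untested genes. Dusp2 was among the 4 with fewer, with 15 and 15 at rest and 4 and 2 after KCl.

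Of the calcium signaling components upstream, 11 were tested and 2 rose, 18.2% against 7.50% of all genes, and none fell. Calm2, which encodes calmodulin, went from 4612 and 4629 reads to 6243 and 7679 (0.58 ± 0.11), and Hdac5, a class IIa histone deacetylase that leaves the nucleus on calcium signals, rose by 0.35 ± 0.08. Neither the other calmodulin genes nor Camk2a and Camk2b were called.

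**Figure D2:**
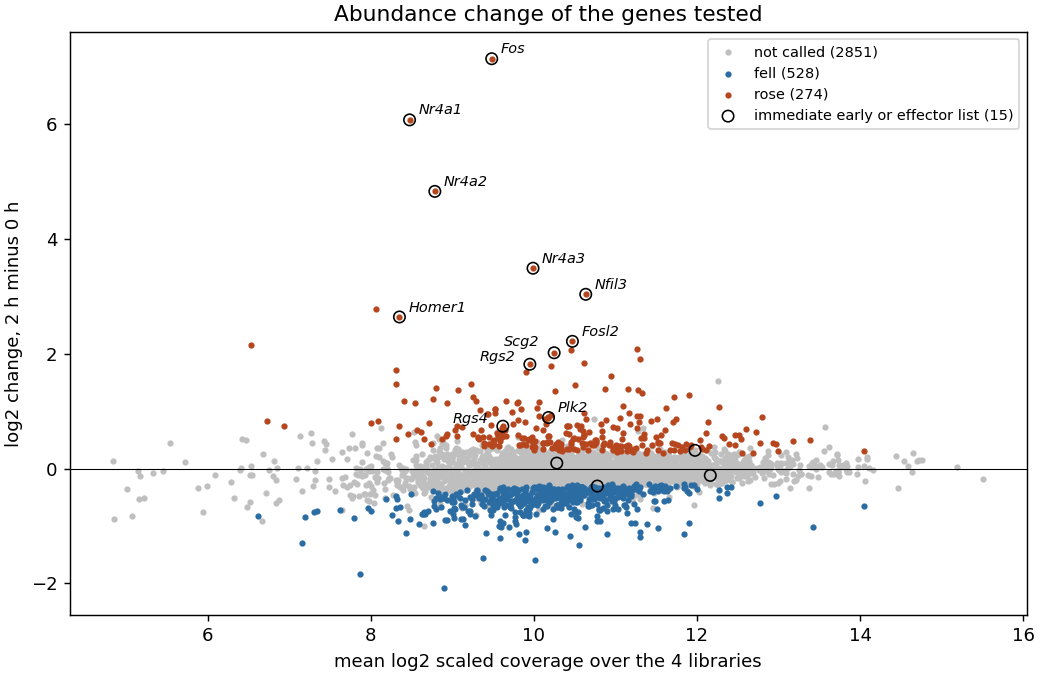
Log2 change (2 h minus 0 h) of each of the 3653 genes against its mean log2 scaled coverage over the 4 libraries, coloured by the limma call. Open circles mark the 15 tested genes of the immediate early and effector lists, 11 of which rose, and the rest of the genes lie mostly within 1 log2 unit of 0.

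Other genes among the 10 largest rises were of several kinds. Atf4, the transcription factor of the integrated stress response, rose from 1135 and 1254 reads to 5054 and 5038 (2.08 ± 0.08). Tiparp, a mono-ADP-ribosyltransferase, was at 49.3 and 38.9 reads at rest and 203.6 and 187.5 after KCl (2.16 ± 0.23). Zdbf2, an imprinted gene, went from 130.9 and 79.0 reads to 1172 and 418.0 (2.78 ± 0.51), and without one or the other 2 h library the log2 change was 2.04 or 3.53. In the list of heat shock and unfolded protein response genes, 11 were tested. Hspa5, the chaperone BiP, rose by 0.81 ± 0.07 and Dnajb1 by 0.67 ± 0.13, while Xbp1, a factor of the unfolded protein response, fell by 0.97 on the log2 scale and the co-chaperone Dnajb5 by 1.56. The list thus held 3 rises (27.3% against 7.50% of all genes) and 2 falls (18.2% against 14.5%), with a median log2 change of 0.22.

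The largest fall was that of Arrdc3, an arrestin-domain adaptor, from 944.4 and 1012 reads to 225.2 and 236.0, a log2 change of -2.08 ± 0.10 (limma adjusted p = 0.00051). Sall2, a zinc finger factor, fell from 451.2 and 432.8 reads to 121.5 and 127.0 (-1.83 ± 0.13). Msantd4 fell by 1.59 on the log2 scale, Cstf2t, a polyadenylation factor, by 1.33 and Sephs2, which makes selenophosphate, by 1.23. Their libraries at the 2 times were well apart. Pcdh1, a protocadherin, fell by 1.202 and Lmnb1, which encodes lamin B1, by 1.17. Gm42418, also among the 10 largest falls, is a locus that shares sequence with ribosomal RNA, so its fall from 220.2 and 227.6 reads to 82.9 and 99.9 is uncertain.

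Beta-tubulin genes were among the falls. Tubb4a went from 4022 and 3649 reads to 1682 and 1664 (-1.195 ± 0.08), Tubb3 from 16569 and 14786 to 8102 and 7326 (-1.02 ± 0.10), and Tubb5 from 20419 and 22050 to 12928 and 14200 (-0.65 ± 0.10). Tubb2a and Tubb2b, at -0.34 each, were not called. These genes are close in sequence. The authors called cytosines from unambiguously aligned reads, so stretches the genes share may be missing from these values. In the same cytoskeletal list the neurofilament genes Nefl, which went from 1622 and 1657 reads to 3110 and 3280 (0.96 ± 0.07), and Ina (0.52 ± 0.07) rose, and the microtubule-associated Map1a fell by 0.54 on the log2 scale. Of its 18 tested members, 2 rose (11.1% against 7.50% of all genes) and 3 fell (16.7% against 14.5%), and the median log2 change was -0.09, near that of all genes.

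Transcripts of synaptic proteins were split by side of the synapse. Of 20 tested glutamate receptor and scaffold genes none rose and 2 fell, 10.0% against 14.5% of all genes. Grin2b, an NMDA receptor subunit, had 713.8 and 602.0 reads at rest and 425.3 and 295.5 after KCl (-0.89 ± 0.20, limma adjusted p = 0.031), and the scaffold gene Dlg3 fell by 0.54 on the log2 scale. Of 30 tested presynaptic genes, Syt4, a synaptotagmin of dense-core vesicles, rose from 1879 and 1711 reads to 3578 and 3209 (0.92 ± 0.09). Syn2, Syn3, Stx1a, Sv2a, Sv2b and Nrxn2 fell by 0.31 to 0.51 on the log2 scale, 6 of 30 or 20% against 14.5% of all genes, and under median-of-ratios or TMM scaling none of the 6 passed (limma adjusted p between 0.052 and 0.084).

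Transcripts of the machinery that writes, reads and removes m5C mostly had too few shared cytosines to test. Nsun2, which encodes the main mRNA m5C methyltransferase, had 1936 and 1974 reads at rest and 1862 and 1706 after KCl, a log2 change of -0.13 ± 0.08 that was not called (limma adjusted p = 0.27). The other 7 writers had fewer than 5 shared cytosines. Of these 7, 3 had fewer listed cytosines in both 2 h libraries and none had more, against 23.5% and 13.4% of all untested genes. Among the readers, Ybx1 went from 15309 and 15114 reads to 18883 and 18827 (0.31 ± 0.08), a rise that was lost when positions were averaged by the mean (limma adjusted p = 0.13), and its paralog Ybx3 fell by 0.39. Srsf2, a splicing factor reported to bind m5C, rose by 0.70 ± 0.08. Alyref, the export adaptor that reads m5C, was not called at 0.15 ± 0.09. Fmr1 had 2158 reads in one 2 h library and 1143 in the other, against 1564 and 1284 at rest, so its direction turned with the library left out.

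Further lists were described by their counts alone. Cytosolic ribosomal protein genes gave 3 rises (5.08% against 7.50% of all genes) and 1 fall (1.69% against 14.5%) among 59 tested, with a median log2 change of 0.07. None of 7 mitochondrially encoded mRNAs was called. Of the DNA replication and repair genes 5 were tested, and Parp1 and Apex1 fell by 0.50 and 0.62 on the log2 scale, 40% against 14.5% of all genes, with a list median of -0.26. Of the 40 untested members, 10 had fewer listed cytosines in both 2 h libraries and 2 had more, against 23.5% and 13.4% of all untested genes. The count with fewer was thus near the share of all untested genes. Of 17 zinc finger genes with the Zfp prefix none rose, and Zfp146, Zfp512 and Zfp821 fell, 17.6% against 14.5% of all genes, with a median of -0.23. Inhibitory neuron markers Gad1 and Sst rose by 0.39 ± 0.07 and 0.49 ± 0.09, 2 of 3 tested or 66.7% against 7.50% of all genes, and neither was called without either 0 h library.

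Start site windows were searched for the CREB half-site TGACG on either strand. The windows, from RefSeq on GRCm38.p6, run from 250 bases before to 50 after a start, and 2827 of the tested genes had at least 1. TGACG was present for 138 of 222 genes that rose, 62.2%, against 1180 of 2827 tested genes, 41.7%, and 145 of 409 genes that fell, 35.5%. It was found for Fos, Nr4a1, Nr4a2, Nr4a3, Nfil3, Homer1, Scg2, Rgs2 and Atf4, and it was not in the window of Fosl2. The full site TGACGTCA, which contains the half-site, was present for 21 of the 222 (9.46%), 127 of the 2827 (4.49%) and 10 of the 409 (2.44%). Over all 32851 windows the shares were 20.8% and 1.79%. The motif was chosen with the calls known, genes with several starts had more windows searched, and a match is not evidence of binding.

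To ask whether methylation changed, the 2248 positions were divided by their surroundings. Isolated nuclear positions, 394 in number, had no other such position within 10 bases. Clustered nuclear positions (421) had such a neighbor within 10 bases. Tandem repeat positions (625) lay in a context that matched itself at 90% or more after a shift of 1 to 7 bases, and 808 positions were mitochondrial. By Fisher's exact test on reads summed over replicates, adjusted over all 2248, 216 positions rose (9.61%) and 55 fell (2.45%). Of the rises, 212 were isolated positions, 140 of which met the minimums at 2 h alone. The clustered positions gave 4 rises and 9 falls, the repeats none and 2, and the mitochondrial positions none and 41.

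At the isolated positions the median level was 11.9% and 11.5% in the resting libraries and 19.2% and 19.0% after KCl. The replicates differed by under 1 percentage point and the times by about 7. The median change was 7.26 points, with quartiles of 3.48 and 12.3, and 342 of 394 positions were higher at 2 h. Both 2 h libraries lay above both 0 h libraries at 279 positions, 70.8% against 22.4% of all 2248, and below at 16. An exact permutation test over the 4 libraries has 6 arrangements, and its p of 0.333 was the smallest it can give. Clustered positions had median levels of 52.6% and 48.4% at rest and 49.2% and 50.3% after KCl, and repeats stayed at 100% in all libraries. Mitochondrial positions were at 33.7% and 31.2% at rest and at 24.3% and 37.0% after KCl, so the 2 h replicates differed from each other by more than the times did.

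Fisher's test counts reads and ignores the spread between replicates. The same test between replicates called 2 of the isolated positions at 0 h and 7 at 2 h, against 215 between times, but a comparison of replicates has 1 library on each side where that of times has 2, so it had fewer reads to call with. It called 81 of the 808 mitochondrial positions at 2 h. Tests that use the replicate spread had 2 libraries a group and called no position after adjustment over all classes, with limma and with a quasi-binomial model. With the replicate number as a block, limma called 90 rises and 9 falls, 86 and 1 of them isolated, but nothing in the labels shows that the numbers pair the cultures. Without the block, 150 of the 394 isolated positions had an unadjusted limma p under 0.05. Limma over the isolated positions alone, chosen after the data were seen, called 100 rises and 1 fall. Positions that rose were the deeper ones, with a median lowest coverage of 192 reads against 82 for those not called.

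**Figure D3:**
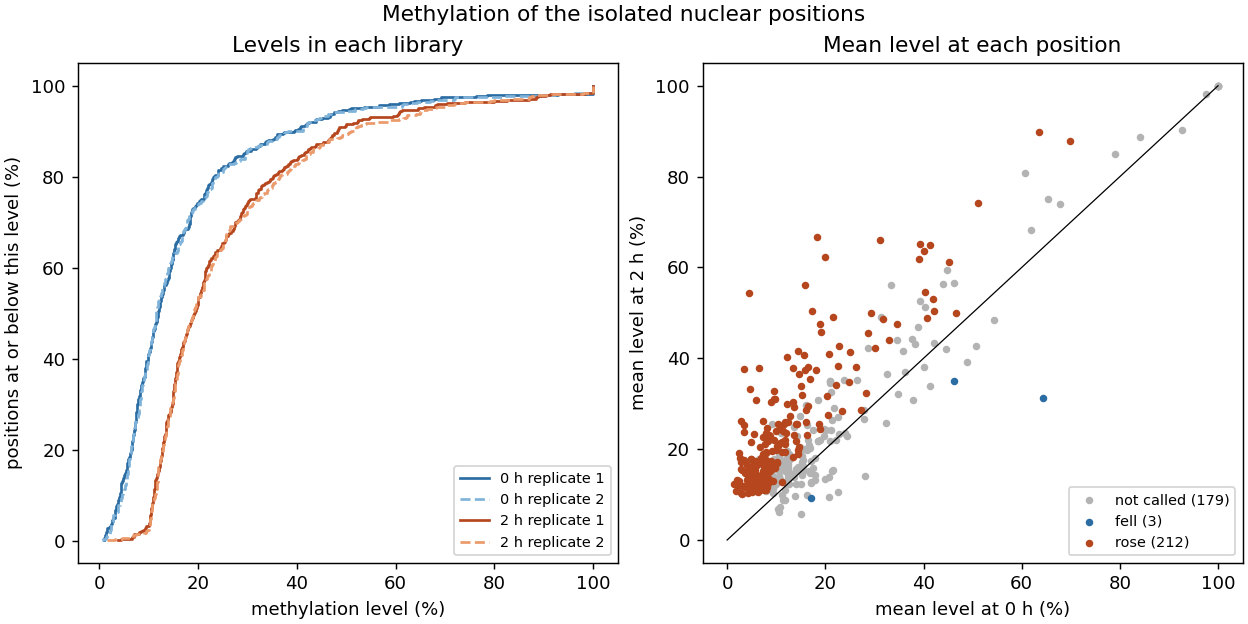
Methylation levels of the 394 isolated nuclear positions. Left, the cumulative share of positions at or below each level, 1 line per library, with the medians at 11.9% and 11.5% at 0 h and 19.2% and 19.0% at 2 h. Right, the mean level of the 2 replicates at 2 h against that at 0 h, coloured by the call of Fisher's exact test, with the line of equal levels. Most points lie above the line, and few 2 h levels are under 10% since 371 of the 394 positions met the minimum of 10% at 2 h.

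The entry rule favors the time at which a position is high. Of the 394, 371 met the minimums at 2 h and 196 at 0 h, 173 of them at both. The 173 that met them at both times had a median rise of 6.62 points, with 143 higher at 2 h, and 72 were called as rises and 2 as falls. The 198 that met them at 2 h alone had a median change of 8.10 points and held 140 of the 212 rises. The 23 that met them at 0 h alone changed by a median of -4.43 points and held no rise and 1 fall. Both of these follow the direction the rule favors. Isolated positions chosen in the first replicate of each time and read in the second had a median change of 5.31 points (422 of 529 higher), and the reverse choice gave 5.86 (395 of 491 higher). Positions were also chosen in the separate 6 h libraries, a choice that can favor positions raised by KCl, since these cultures had KCl as well. They changed by a median of 6.81 points between 0 h and 2 h (231 of 268 higher). The 196 that met the minimums at 0 h, whatever their level at 2 h, were chosen at rest, which leans against a rise. Their median change was 5.09 points, with 145 higher at 2 h, 72 called as rises and 3 as falls.

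The level can rise through more unconverted reads or through fewer converted ones. After scaling, unconverted reads at the isolated positions had a median log2 change of 0.55 and were higher at 308 of 394. Converted reads had a median log2 change of -0.29 and were lower at 285, and the coverage of the position changed by a median of -0.17. At the 212 positions that rose, the median log2 changes were 0.85 for unconverted and -0.42 for converted reads, but these were picked by their rise. The entry minimum of 6 unconverted reads also favors the time with more of them. At the 198 positions that met the minimums at 2 h alone, unconverted reads had a median log2 change of 0.94. At the 173 that met them at both times it was 0.19, with 113 higher, and converted reads changed by -0.32, with 127 lower.

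The largest rise was in the 3′ UTR of Arid3a, which encodes an AT-rich DNA-binding factor. Its level was 2.44% and 6.52% at rest and 54.8% and 54.1% after KCl, at 31 to 46 reads a library (Fisher's exact test, adjusted p = 5.64e-11). The position in the 3′ UTR of Gprin2, a G protein-regulated neurite protein, went from 18.9% and 17.7% to 68.4% and 65.2%. Trim2, a ubiquitin ligase of neurons, had a coding position at 18.8% and 21.04% that reached 60.6% and 64.1%, at 312 to 543 reads. Zbed3, a regulator of Wnt signaling, had a coding position at 15.8% in both resting libraries that reached 60.3% and 51.9%. At these 4 positions the 2 times did not come near each other.

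The next 6 rises were smaller. The position in Rptor, a subunit of mTORC1, went from 37.2% and 25.2% to 65.7% and 66.3%. That in Casc3, of the exon junction complex, went from 24.7% and 9.92% to 51.4% and 49.2%. Kcnc1, a fast potassium channel gene, had a position at 7.27% and 5.56% that reached 37.3% and 38.6%. The resting replicates of Casc3 and Rptor differed by over 10 points, less than the distance to either 2 h library.

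The coding position in Plekha6 went from 1.16% and 8.06% to 32.8% and 33.9%. That in Nelfb, of the negative elongation factor that pauses RNA polymerase II, went from 15% and 23.0% to 41.5% and 53.6%. The deepest of the 10, in a coding stretch of Atn1 that the annotation shares with Gm45234, went from 13.7% and 10.7% to 40.03% and 40.4%, at 1353 to 1543 reads. None of the 10 passed limma over all classes, and those in Arid3a, Casc3, Kcnc1 and Plekha6 met the minimums at 2 h alone.

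Falls were few. The position in the 5′ UTR of Cers4, a ceramide synthase gene, had levels of 60.7% and 67.9% at rest and 32.1% and 30.6% after KCl, at 28 to 36 reads (Fisher's exact test, adjusted p = 0.0057). Wdr48, a cofactor of deubiquitinases, went from 48.4% and 44.0% to 38.7% and 31.3%. Rell2 went from 18.4% and 15.8% to 6.73% and 11.7%, at a position that met the minimums at 0 h alone. In all 3 genes both 2 h libraries lay below both resting ones.

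**Figure D4:**
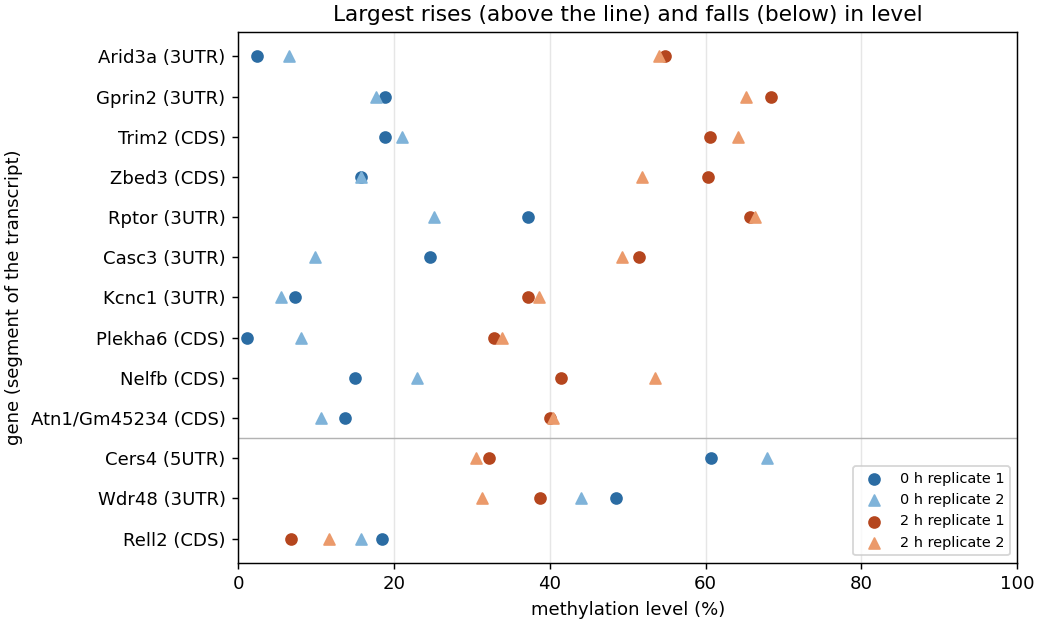
Methylation level in each of the 4 libraries at the 10 isolated positions with the largest rises and the 3 that fell, named by gene and transcript segment. Points are single libraries. The times do not overlap at any of the 13 positions, and at Wdr48 and Rell2 the 2 h replicates differ by more than the nearest libraries of the 2 times.

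The positions of the 10 largest rises lay in coding sequence or 3′ UTRs. Of all isolated positions, 166 were coding, 143 in 3′ UTRs, 37 in 5′ UTRs, 15 in noncoding exons and 10 in introns, and 23 had no annotated gene. Median changes were 7.20 points in coding sequence, 8.39 in 3′ UTRs and 6.29 in 5′ UTRs. In coding sequence 110 of 166 rose (66.3%) and in 3′ UTRs 87 of 143 (60.8%), against 6 of 37 in 5′ UTRs (16.2%). The median lowest coverage was 201.5 reads in coding sequence, 147 in 3′ UTRs and 55 in 5′ UTRs. The 23 positions with no gene had a median change of 0.00 points.

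Rises were found with and without the known sequence contexts. The pattern CNGGG, the measured C followed by any base and then 3 G, which is the context of NSUN2-type sites, held for 100 of the 394 positions (25.4%), against 2.04% of all 289029 shared cytosines. Of the contexts above, the coding position of Trim2 holds it and that of Zbed3, which reads CTGGA, does not. Positions with CNGGG had a median change of 7.24 points, with 50 rises, and the other 294 had 7.27 points, with 162 rises. CTCCA, the context of NSUN6-type sites, held for 10 positions (2.54%, against 0.831% of the shared cytosines), and 4 of them rose.

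Of the 15 genes, or groups of genes with one shared annotation, that had several isolated positions, 7 had rises at every position and 3 at none. Both positions of Glg1 rose, by 15.6 and 16.3 points, and both of Ranbp9, by 11.1 and 22.9. Btbd9 had one rise of 26.8 points and a second position at 6.92 points that was not called.

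There were 17 isolated positions in listed genes, synaptic, activity and m5C genes and those the study itself named. Of these, 9 rose, 8 were not called and none fell, a share of rises close to the 53.8% of all 394. Outside the genes the study named, rises were found in Rims1, Jund, Syn1 and Grin2b, at positions that met the minimums at 2 h alone. Jund had levels of 5.52% and 3.38% at rest and 11.1% and 14.0% after KCl. Syn1, a synapsin of vesicle clusters, had 7.48% and 9.50% at rest and 13.5% and 13.2% after KCl, at 2915 to 4327 reads. Rims1, an organizer of release sites, went from 9.47% and 9.15% to 14.9% and 17.2%. The synaptophysin gene Syp, at 2315 to 3790 reads, was not called, at 11.9% and 11.5% against 9.45% and 12.7%. Shank3, Grin1, Grm4, Syngr1 and Ybx3 were not called, with overlapping libraries in all but Ybx3.

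The genes named by the study were chosen there on these same cultures, so their direction is not independent evidence. Zbed3 is given above. The Homer1 position at 93303935 had levels of 3.85% and 8.54% at rest and 16.04% and 18.9% after KCl (Fisher's exact test, adjusted p = 0.00029), while its coverage went from 104 and 82 reads to 1216 and 818. A second Homer1 position, at chr13:93303841, had 3.13% and 16.7% against 14.0% and 12.5%, at 30 and 32 reads at rest, and was not called. Zfp553 went from 7.12% and 12.2% to 27.2% and 35.1% and Rhbdd2 from 4.46% and 4.52% to 13.6% and 11.6%, both called rises. These positions and both of Homer1 met the minimums at 2 h alone, the direction in which the entry rule favors a rise. Sik3, at 8.16% and 16.48% against 16.6% and 14.2%, was not called. No listed cytosine with 20 reads was assigned to the symbol Fam122a alone, although the study names a changed site in it. A cytosine assigned to several genes or under another symbol was not counted.

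To set methylation beside abundance, 210 isolated positions were in a tested gene. In genes whose abundance fell, 24 of 29 positions rose in level and none fell, with a median change of 9.96 points. In genes not called, 87 of 169 rose and 2 fell, with a median of 5.68 points. In genes that rose, 5 of 12 rose and none fell, with a median of 5.95 points. The median lowest coverage was 204 reads in genes that fell, 236 in genes not called and 75.5 in genes that rose. Positions that met the minimums at 2 h alone were not split off in these counts. Rises in level were found in genes of every abundance call, and whether the shares differ between calls was not tested. The share of rises was 53.8% over all 394 positions.

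Across the 210 positions the level change and the log2 abundance change had a Pearson r of -0.12 and a Spearman rho of -0.21, as a description only. Both measures come from the coverage of the same libraries, and positions share genes. With 1 position per gene r was -0.09 over 200 positions. Over all 394 positions, the coverage change of the position itself and its level change had an r of -0.21.

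Grin2b had a transcript that fell by 0.89 on the log2 scale. Its position in the 3′ UTR went from 8.19% and 11.8% to 15.7% and 32.4%, at 74 to 171 reads. Trim2 and Nelfb, with the large rises above, fell in abundance by 0.52 and 0.55. Rabgap1l, chosen after its values were seen, had one of the highest levels, 63.0% and 64.3% at rest and 91.3% and 88.5% after KCl, in a transcript that fell by 0.95. Among the transcripts that rose were Homer1 and Clcn3, a chloride-proton exchanger gene also chosen after its values were seen, whose abundance rose by 0.52 and whose position went from 10.4% and 11.5% to 25.4% and 23.9%. Ina, whose abundance rose by the same amount, had a position at 24.1% in both resting libraries and 23.1% and 23.9% after KCl, at 4454 reads or more.

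**Figure D5:**
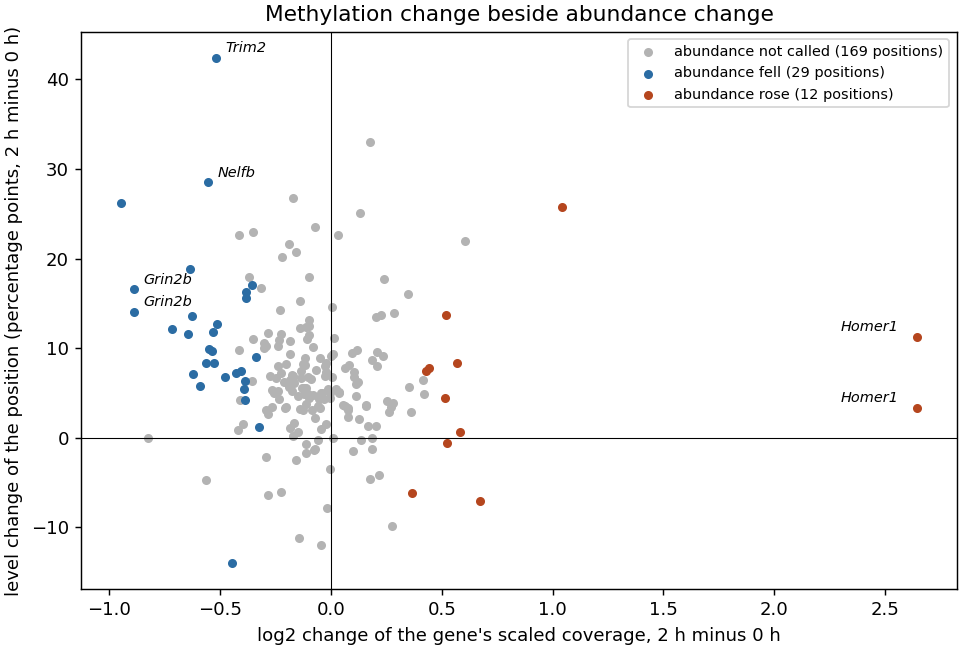
Level change in percentage points against the log2 change in scaled coverage of the same gene (both 2 h minus 0 h) for the 210 isolated positions in tested genes, coloured by the abundance call. Points are positions. Those in genes that fell lie mostly above 0, with 24 of 29 called as rises, and the Homer1 positions lie far to the right.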

How the data were processed

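The comparison rests on 4 RNA BS-seq libraries. Read trimming, alignment to GRCm38 by the meRanTK aligner and cytosine calling by meRanCall were done by the authors. The deposited files hold, per library and listed cytosine, read counts (coverage and unconverted reads) with no normalization and the methylation level as a fraction. Methylation levels here are unconverted reads over unconverted plus converted reads. Whether duplicate reads were removed is not given in the sources used here, and reads without molecular identifiers are not independent molecules. The authors' filters on unconverted reads, signal to noise and secondary structure are not applied in these files.

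Coverage was scaled to equal summed nuclear coverage, its median log2 over positions was taken per gene, and limma 3.58.1 (trend, R 4.3.3) was run over 3653 genes. A pileup counts 1 read at many cytosines, so counts were not modeled directly except as an alternative, edgeR 4.0.16 on rounded medians. Cytosines assigned to several genes (5582) or none (2226) were left out of gene values. Levels were tested on summed reads by Fisher's exact test, p-values being adjusted by Benjamini-Hochberg over 2248 positions. Alternatives were other scalings, filters and tests, a replicate block and leaving out each library. Transcript segments came from GENCODE M21, and all 394 isolated contexts matched GRCm38. Named genes were the 10 largest rises and falls and members of fixed lists, and named positions the 10 largest rises, the falls and those in synaptic, activity and m5C list genes. The members and lists were chosen with earlier results of these data known. The tests were run on simulated data with known changes, where Fisher's test called many unchanged positions once replicates were given extra spread, so its calls alone do not carry replicate error. Labels call the replicates biological but do not say whether cultures shared embryos. The values of 1 position are not reported here. The 6 h libraries served only to choose positions in one alternative.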

Additional observations from a re-analysis of the deposited data

How the results depend on the processing

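Abundance calls depended on which libraries entered. The 274 rises ranged from 21 to 489 and the 528 falls from 5 to 922 when each library was left out in turn, and a lone library was assumed to vary like the other pair. Leaving out replicate 1 or 2 at 0 h gave 24 or 21 rises and 9 or 5 falls. The rises of Fos, Nr4a1, Nr4a2, Nr4a3, Nfil3, Fosl2, Homer1, Scg2, Rgs2 and Atf4 passed in each of these fits. Cytosines listed in at least 1 library of each time gave 11 rises and 0 falls among 8930 genes (limma, 1426 genes at an unadjusted p under 0.05), at least 20 cytosines per gene gave 184 rises and 231 falls among 2228 genes, and a fold over 2 left 49 rises and 25 falls. Among the listed genes, 22 rises and 16 falls ranged from 10 to 31 and from 0 to 34 over the left-out libraries. Cytosines listed at each time left 7 and 0 of them, and median-of-ratios or TMM scaling left 10 falls. Reversed directions were those of Alyref (-0.21 with cytosines listed at each time) and Fmr1 (-0.31 without replicate 1 at 2 h and 0.61 without replicate 2). The cause was not tested.

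For methylation, 212 isolated rises became 0 with limma and with the quasi-binomial model, 119 with a difference of at least 10 percentage points, and 100 with limma on isolated positions alone. Over all classes, 216 rises became 0, 0 and 122, and 55 falls became 0, 0 and 27, 23 after thinning to equal depth and 4 within the study's own site list. The 3 isolated falls became 0 with both models and 1 with limma on isolated positions alone. Left-out libraries gave 154 to 183 isolated rises, 1 to 4 isolated falls, 165 to 199 rises and 10 to 72 falls over all classes. The fall count over all classes was 10 and 27 without replicate 1 and 2 at 0 h and 24 without replicate 1 at 2 h, and the isolated fall count was 1 without replicate 1 at 0 h. The median change of 7.26 points ranged from 7.10 to 7.42 over left-out libraries. It was 5.31, 5.86 and 6.81 when positions were chosen in replicate 1, in replicate 2 and in the 6 h libraries, alternatives added after the data were seen.

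Labels share replicate numbers, but with 2 pairs the numbers were not taken as pairing samples. Deviations of same-numbered libraries correlated at r = 0.394 over genes and 0.034 over isolated positions. With a replicate block, 314 genes rose and 614 fell, 203 isolated positions rose in a stratified test, and limma with the block called 86 isolated rises and 1 fall (90 and 9 over all classes). Within replicate 1 and within replicate 2 the median change was 7.37 and 7.399 points.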
